A study of Mus musculus with 2 samples.

Results

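The genes described here are 10 inhibitors of cytokine signals, chosen by symbol from the 48321 gene symbols that the count files list. Of these, 8 form the SOCS family, namely *Socs1* to *Socs7* and *Cish*. The other two, *Pias1* and *Ptpn2*, encode proteins that limit the JAK-STAT pathway by other means. RNA was sequenced from mature thymocytes of *MHC-II0:CD8ab Tg* mice on the C57Bl/6 background, as 2 libraries labelled replicate 1 and replicate 2. These mice combine *I-Ab*-/-, which removes MHC class II, with *Rosa26* 8a/8b, which places *Cd8a* and *Cd8b1* cDNAs under the *Rosa26* promoter, with *Cd8* Δab/Δab, which removes both endogenous CD8 chains, and with *Cd4-Cre*, which switches the transgenes on from the stage at which thymocytes express CD4. Every value therefore comes from cells that carry all 4 alterations, with CD8 supplied from the *Rosa26* locus. The ages of the mice, the number of mice in a library and whether the libraries came from separate mice are not given in the labels. Wild-type libraries were not analysed here, so levels are reported and no effect of the genotype was tested.

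The titles of the samples call the cells CD4-CD8-, whereas the cell type field calls them CD8+, and the study's methods describe sorted CD4- mature thymocytes. The markers bear on this as RNA only, since these libraries hold no measure of surface protein. *Cd4* had 12 and 27 counts, and *Zbtb7b*, another marker of the CD4 lineage, 258 and 294. *Cd8a* had 158 and 171 CPM and *Cd8b1* 775 and 786 CPM (a unit in which each library's counts are scaled to the same total on genes), and in these counts RNA of the transgenes and any left from the altered endogenous loci cannot be told apart. The 7 T-cell markers summed to 3128 and 3038 CPM. The markers of mature thymocytes summed to 1970 and 1738 CPM, and those of the earlier double-positive stage to 18.9 and 18.5 CPM, most of it *Dntt*, at 224 and 211 counts. Of the innate memory CD8 markers, which summed to 932 and 1212 CPM, *Eomes* differed most, from 196 CPM in replicate 1 to 355 in replicate 2. Natural killer cell markers summed to 284 and 469 CPM, most of it *Eomes*, which this list also holds. Of the others on that list, *Klrk1* had 61.3 and 77.5 CPM and *Ncr1* 2.69 and 6.89 CPM. Regulatory T-cell markers summed to 110 and 119 CPM, most of it *Ikzf2*, at 91.7 and 99.7 CPM, with *Foxp3* at 12.1 and 12.4 CPM. B-cell markers summed to 13.5 and 15.2 CPM with *Pax5* at 1 and 0 counts and *Cd79b* at 196 and 227, macrophage markers to 14.8 and 16.1 CPM with *Lyz2* at 0 and 2 counts and *Csf1r* at 163 and 191, dendritic-cell markers to 3.05 and 3.02 CPM with *Cd209a* at 0 and *Xcr1* at 41 and 39 counts, and erythroid markers to 0.478 and 0.616 CPM with 5 of 6 genes at 0. The libraries also differed in sex-linked genes, with *Xist* at 34 and 25266 counts and *Ddx3y* at 2450 and 0 counts. This is the pattern of male cells in replicate 1 and female cells in replicate 2. The libraries therefore came from different mice, and sex and replicate cannot be told apart in them. The part of the differences in markers and in sex in any value below was not tested. In bulk RNA, a smaller share of cells that express a gene and less of its RNA per cell cannot be told apart.

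Cytokines such as IL-2, IL-4, IL-7 and IL-15 act on T cells through receptor chains that carry JAK kinases, and the kinases phosphorylate STAT factors that enter the nucleus. STAT factors switch on *Cish*, *Socs1*, *Socs2* and *Socs3* among their targets, and the encoded proteins then bind receptors or kinases through an SH2 domain. A short C-terminal motif, the SOCS box, links them to elongins and a cullin ubiquitin ligase, so the family closes a negative feedback loop. In the thymus, IL-7 signals support the CD8 lineage, and SOCS1 is known as their restraint.

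RefSeq sequences of the region around the start site were searched for 5 of the 10 genes: *Socs1*, *Socs3*, *Socs4*, *Cish* and *Pias1*. The remaining genes were not searched, because their sequences were absent from the source or were left out. Each searched sequence ran from 250 bases before to 50 bases after the start, on the strand of the gene (GRCm38.p6). The 3 shown are those of the feedback inhibitors in which a searched motif was found, since the letters that STAT and interferon regulatory factors can read are part of how these genes are switched on. Capitals mark TTCNNNGAA, the palindrome that STAT factors bind, in *Cish* and *Socs3*, and GAAANNGAAA, the repeat of interferon-responsive promoters, in *Socs1*.
Cish: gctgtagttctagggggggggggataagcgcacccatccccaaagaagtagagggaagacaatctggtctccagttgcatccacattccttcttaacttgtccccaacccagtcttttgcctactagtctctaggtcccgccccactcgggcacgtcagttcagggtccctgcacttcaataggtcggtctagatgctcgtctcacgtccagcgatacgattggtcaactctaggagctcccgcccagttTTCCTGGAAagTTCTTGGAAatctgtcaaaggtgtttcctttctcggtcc
Socs3: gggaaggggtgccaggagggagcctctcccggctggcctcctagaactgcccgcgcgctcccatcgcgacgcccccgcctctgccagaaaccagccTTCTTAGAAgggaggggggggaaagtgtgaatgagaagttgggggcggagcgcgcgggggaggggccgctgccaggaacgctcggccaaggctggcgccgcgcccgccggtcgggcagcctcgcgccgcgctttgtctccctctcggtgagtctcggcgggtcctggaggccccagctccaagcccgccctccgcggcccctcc
Socs1: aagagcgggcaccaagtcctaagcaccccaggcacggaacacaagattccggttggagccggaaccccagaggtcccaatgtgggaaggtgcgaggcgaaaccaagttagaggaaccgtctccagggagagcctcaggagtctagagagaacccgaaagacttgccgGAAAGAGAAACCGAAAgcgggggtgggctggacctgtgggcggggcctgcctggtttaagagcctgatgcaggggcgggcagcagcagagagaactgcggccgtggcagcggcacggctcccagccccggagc

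The *Cish* window (chr9:107296409-107296708, plus strand) held 2 copies of TTCNNNGAA. TTCCTGGAA began 0 bases after the RefSeq start and TTCTTGGAA began 11 bases after it. Only 0.457% of the 32851 promoters in the table held at least 2 such copies, and 8.30% held at least 1. The *Socs3* window (chr11:117969317-117969616, minus strand) held TTCTTAGAA, 154 bases before the RefSeq start. In GENCODE M21 the outermost starts of *Cish* and *Socs3* lie further upstream, so both windows fall inside those genes. The distances hold for the RefSeq start only. The *Socs1* window (chr16:10785487-10785786, minus strand) held no STAT palindrome, but GAAAGAGAAA and GAAACCGAAA began 83 and 77 bases before the start and overlap each other. This repeat, searched on both strands, occurred at least 2 times in 0.225% of all promoters and at least once in 3.44%. It was chosen after the *Socs1* sequence was seen, so these shares do not test the match in *Socs1*. Neither motif, nor TTCNNNNGAA, which 6.95% of promoters held, was found in the windows of *Socs4* (chr14:47276670-47276969, plus strand) and *Pias1* (chr9:62980830-62981129, minus strand). By base composition, *Cish* stood near the median promoter, with 53.3% G and C against 52.7%, and *Socs3* lay highest of the 5 at 73.3%. These matches are letters in a window and were not set against binding data.

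All 10 inhibitors were detected, with at least 1 CPM in both libraries, a level that 12667 genes or 26.2% of those listed reached. At a minimum of 5 CPM, 9 of the 10 still counted, against 20.5% of all genes, and *Socs2* was the one below. The median level of the 10 genes was 52.6 CPM. Counting error was small for most of them, because the libraries held 16732644 and 16245849 counts on genes.

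*Socs1*, *Cish*, *Socs3* and *Socs2* are the feedback inhibitors that STAT factors induce. *Socs1*, which blocks JAK kinases directly through a kinase inhibitory region, had 1319 counts in replicate 1 and 1320 in replicate 2, or 78.8 CPM (95% Wilson interval 74.7 to 83.2) and 81.3 CPM (77.0 to 85.8). Its mean was 80.0 CPM ± 1.71 (SD, n = 2). *Cish*, whose product CIS binds receptors at the sites where STAT5 docks and also dampens T-cell receptor signals, had 947 and 873 counts, or 56.6 and 53.7 CPM, with a mean of 55.2 ± 2.02 (SD, n = 2). It was one of only 2 of the 10 genes with the higher CPM in replicate 1, and the intervals of its libraries, 53.1 to 60.3 and 50.3 to 57.4 CPM, overlapped. *Socs3*, which carries the same type of kinase inhibitory region and acts on gp130, the shared receptor chain of IL-6 and related cytokines, had 701 and 688 counts, or 41.9 and 42.3 CPM. Its mean of 42.1 CPM ± 0.322 (SD, n = 2) varied least of the 10, with a coefficient of variation of 0.764%. *Socs2*, known best as the restraint on growth hormone signals, had 44 and 59 counts, or 2.63 CPM (1.96 to 3.53) and 3.63 CPM (2.82 to 4.68). This lay above the floor that 3 counts set, 0.179 and 0.185 CPM in replicates 1 and 2.

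The remaining SOCS genes encode proteins with a longer N-terminal region that have been studied mostly in signals of growth factor and insulin receptors. *Socs4* had 1407 and 1516 counts, or 84.1 and 93.3 CPM, and a mean of 88.7 ± 6.53 (SD, n = 2). *Socs5*, its closest relative, had 578 and 571 counts, or 34.5 and 35.1 CPM (mean 34.8 ± 0.427, SD, n = 2). *Socs7* had 801 and 846 counts, or 47.9 and 52.1 CPM (mean 50.0 ± 2.97, SD, n = 2). *Socs6* had 283 and 295 counts, or 16.9 and 18.2 CPM (mean 17.5 ± 0.881, SD, n = 2). Of these 4 genes, *Socs5* alone had the higher count in replicate 1, and all 4 had the higher CPM in replicate 2.

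Both inhibitors outside the SOCS family act on the pathway at other points. *Pias1* encodes a SUMO ligase that binds STAT factors and keeps them from DNA. It had 938 and 897 counts, or 56.1 and 55.2 CPM (mean 55.6 ± 0.597, SD, n = 2). *Ptpn2* encodes TC-PTP, a phosphatase that acts on JAK1, JAK3, STAT factors and the T-cell receptor kinase Lck. It had 900 and 964 counts, or 53.8 CPM (50.4 to 57.4) and 59.3 CPM (55.7 to 63.2), with a mean of 56.6 ± 3.93 (SD, n = 2).

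**Figure D1:**
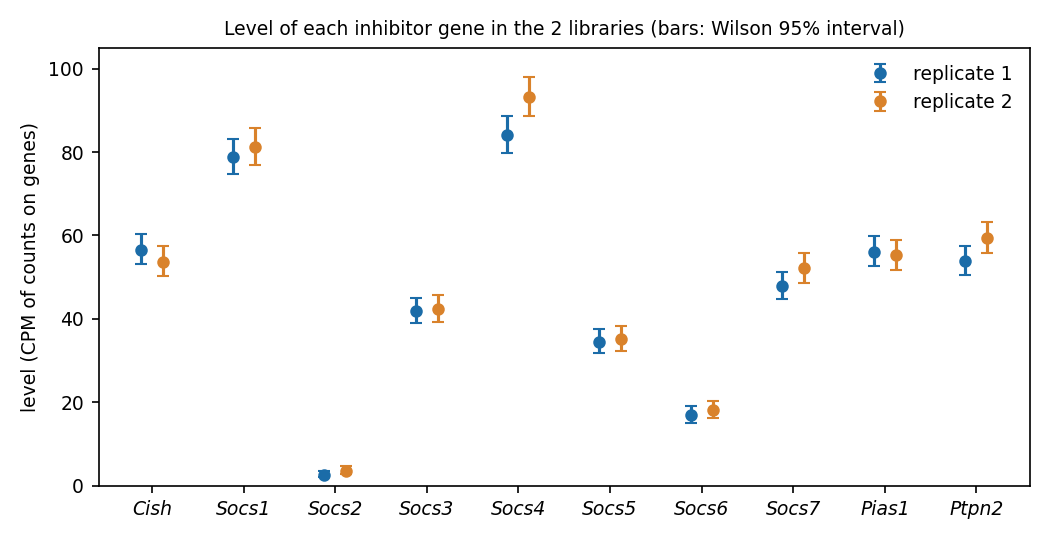
Level of each inhibitor gene in CPM (vertical axis) in replicate 1 (blue) and replicate 2 (orange), with Wilson 95% intervals of counting error as bars. The points of *Socs1* lie at 78.8 and 81.3 CPM, and only for *Socs4* do the bars of the libraries fail to overlap.

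Since a longer transcript gives more reads, the order of the genes was read per kilobase of merged exon in GENCODE M21 (CPM per kb, the same quantity as RPKM). The merged length ran from 2891 bases in *Socs3* to 11349 bases in *Socs6*. Per kilobase, *Socs1* was the highest of the 10, at 27.1 and 27.9 RPKM (mean 27.5 ± 0.589, SD, n = 2), and *Socs2* the lowest, at 0.276 and 0.381 RPKM (mean 0.328 ± 0.0743, SD, n = 2), a ratio of 83.8 between their means that was 37.3 with the longest transcript, 24.2 with coding length and 19.5 with the principal transcript, since the merged length of *Socs2* joins 14 transcripts over 9531 bases. *Ptpn2* came next after *Socs1*, at 17.2 and 19.0 RPKM, and lay 1.52-fold below it. *Socs3* followed at 14.5 and 14.6 RPKM, and *Socs4* at 12.2 and 13.6 RPKM.

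*Cish* had 8.82 and 8.37 RPKM and *Pias1* 8.21 and 8.08 RPKM, with means 1.06-fold apart, against 1.94-fold with the principal transcript and 2.51-fold with coding length. *Socs7* had 6.59 and 7.17 RPKM, and *Socs5* 5.38 and 5.48 RPKM. *Socs6*, at 1.49 and 1.60 RPKM, lay 3.51-fold below *Socs5*, or 1.98-fold with coding length. *Socs2* lay a further 4.70-fold below *Socs6*, or 2.06-fold with the principal transcript and 2.11-fold with coding length. No pair of neighbours in this order had overlapping ranges over the 2 libraries, although with 2 values a range is a weak measure of spread. Of the 12248 detected genes with a length, *Socs1* stood at percentile 86.3, *Ptpn2* at 78.5, *Socs3* at 73.5, *Socs4* at 70.2, *Cish* at 58.4, *Pias1* at 56.7, *Socs7* at 51.5, *Socs5* at 45.1, *Socs6* at 18.5 and *Socs2* at 2.50. Thus 7 of the 10 inhibitors lay above the median of detected genes, 6.53 RPKM, and their own median was 8.37 RPKM.

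The order depended on the length that was used. *Socs2* was lowest and *Socs6* second lowest under all 4 lengths tried. *Socs1* was highest with merged exons, the longest transcript (27.5 RPKM) and the coding sequence (126 RPKM), whereas *Ptpn2* was highest with the principal transcript, at 36.1 RPKM against 27.5 RPKM for *Socs1*. *Cish* and *Ptpn2* exchanged places between merged exons and coding length, under which *Cish* stood next after *Socs1*, at 71.6 RPKM, and its range overlapped that of *Socs4*, at 67.8 RPKM. *Socs7* and *Pias1* overlapped as well with coding length, at 28.8 and 28.5 RPKM.

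**Figure D2:**
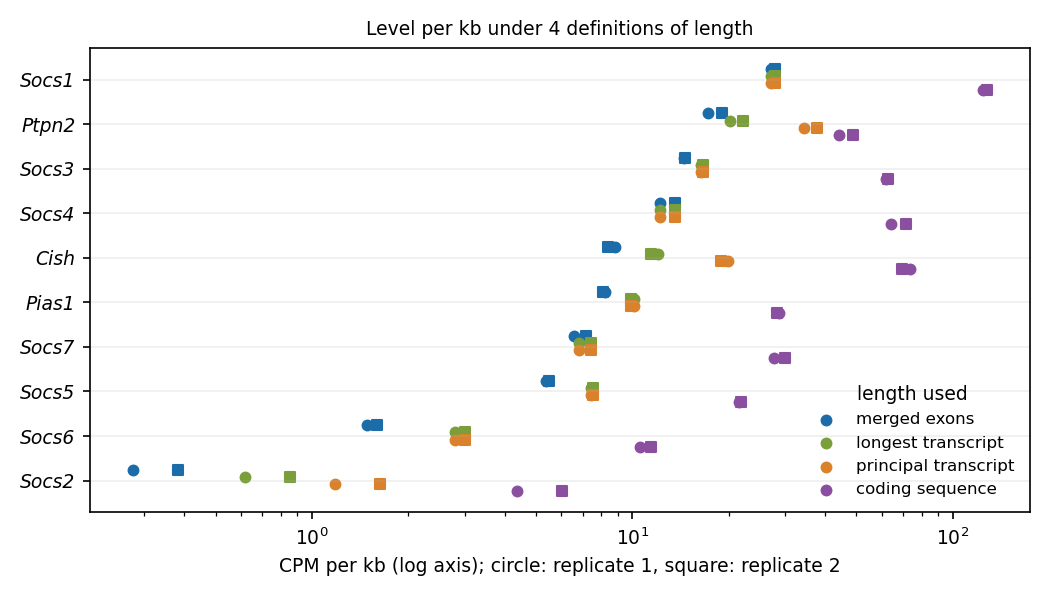
CPM per kilobase of each gene (horizontal log axis) under 4 definitions of gene length, in replicate 1 (circles) and replicate 2 (squares), with genes ordered by merged exons. *Socs6* and *Socs2* stay at the bottom under each length, and *Ptpn2* passes *Socs1* with the principal transcript.

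Within the family, the summed level of the 8 SOCS genes was 76.4 RPKM in replicate 1 and 79.2 RPKM in replicate 2. *Socs1* held 35.5% and 35.3% of this sum (mean 35.4% ± 0.135, SD, n = 2), the greatest share. *Socs3* held 19.0% and 18.5%, and *Socs4* held 16.6% ± 0.802 (SD, n = 2). *Cish* held 11.1% ± 0.684, *Socs7* 8.84% ± 0.303 and *Socs5* 6.98% ± 0.0906 (SD, n = 2). *Socs6* and *Socs2* held 1.99% ± 0.0497 and 0.421% ± 0.085 (SD, n = 2). With coding length *Cish* held 18.2%, above *Socs3* at 15.8%, and with the principal transcript 20.3%, above *Socs3* at 17.3%. The share of *Socs2* was 1.32% and 1.48% under these lengths. The ratio of *Socs1* to *Socs3*, the pair that carry a kinase inhibitory region, was 1.87 and 1.91.

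The transcripts of these genes differ in make-up. *Socs1* (chr16:10782240-10785536, minus strand), *Socs3* (chr11:117966079-117970047, minus strand), *Socs4* (chr14:47276931-47296102, plus strand), *Socs5* (chr17:87107679-87137839, plus strand) and *Socs6* (chr18:88665224-88927481, minus strand) keep their whole coding sequence on 1 exon, a form that 14.8% of the 20661 protein-coding genes in the annotation share. *Socs2* (chr10:95385362-95417180, minus strand) has 2 coding exons, *Cish* (chr9:107296026-107302784, plus strand) 3 and *Socs7* (chr11:97362551-97398542, plus strand) 9, whereas *Pias1* (chr9:62878368-62987924, minus strand) has 14 and *Ptpn2* (chr18:67665511-67724595, minus strand) 10. The encoded SOCS proteins run from 198 residues in *Socs2* through 212 in *Socs1*, 225 in *Socs3* and 257 in *Cish* to 436 in *Socs4*, 533 in *Socs6*, 536 in *Socs5* and 579 in *Socs7*.

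The 3′ untranslated region made up more than 50% of the principal transcript in 8 of the 10 genes, and in 9 of 10 it was longer than the median of 850 bases over protein-coding genes. In *Socs4* it spans 5182 bases, or 75.4% of the transcript, and holds ATTTA, the core letters of elements linked to rapid mRNA decay, 17 times, or 3.28 per kilobase. The median gene holds 1.17 per kilobase. *Socs3* and *Cish* held 2.71 and 2.76 per kilobase, whereas *Socs1*, with 1993 bases of 3′ untranslated region, held 0, as did *Ptpn2* with 341 bases. Of all protein-coding genes, 62.7% held at least 1. These are counts of letters, and RNA decay was not measured.

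**Figure D3:**
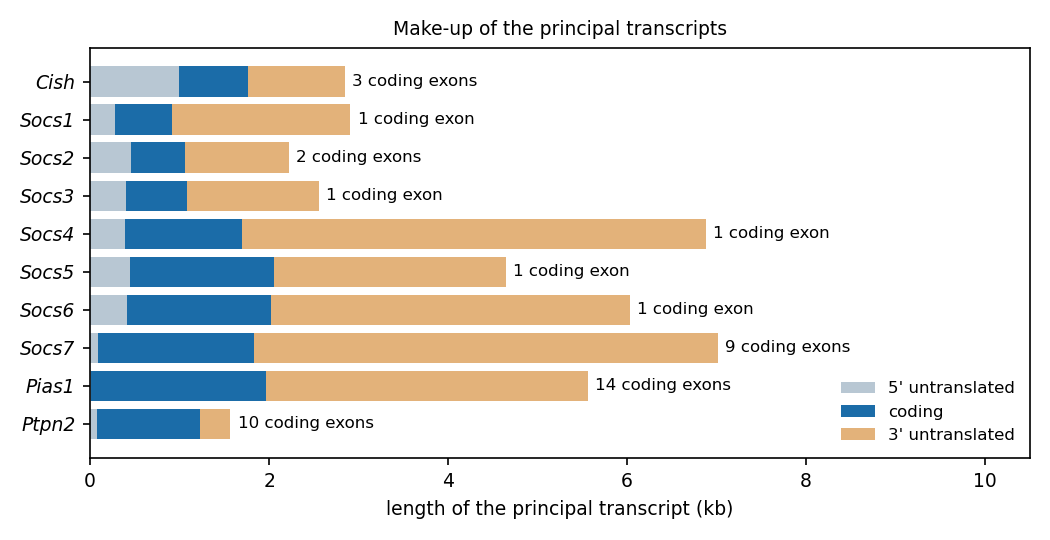
Length of the principal transcript of each gene in kilobases (horizontal axis), split into 5′ untranslated (grey), coding (blue) and 3′ untranslated (orange) bases, with the number of coding exons beside each bar. The long 3′ untranslated regions of *Socs4* and *Socs7*, of 5182 and 5184 bases, stand out against the 341 bases of *Ptpn2*.

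Some reads of these genes could have been assigned elsewhere. Of the windows of 50 bases, the read length, 0 were shared with transcripts of other genes in 6 of the 10. Shared windows made up 9.35% of *Cish*, 6.14% of *Socs6*, 4.58% of *Socs2* and 0.306% of *Socs4*. For *Cish* the sharing came mainly from *Gm17040* and *Gm17041*, annotated on the opposite strand over 740 bases of its exons, with 56 and 49 counts for *Gm17040* and 301 and 273 for *Gm17041*. Whether counting used strand is not given in the sources used here, and without strand the reads of such partners cannot be told apart, so the level of *Cish* carries this uncertainty.

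The libraries were then compared gene by gene, which tests these 2 libraries and not a condition. Exact binomial tests, two-sided and adjusted by the Benjamini-Hochberg method, were run on 15949 genes with at least 10 counts, and a gene was called at an adjusted p under 0.05 together with at least a 2-fold difference. None of the 10 inhibitors was called, against 1.52% of all genes tested (242 genes), and 2 of the 10 had an unadjusted p under 0.05, against 27.7% of all genes. At an adjusted p under 0.05 without the fold minimum, 1 of the 10 passed, *Socs4*, against 16.3% of all genes tested. *Socs4* was higher in replicate 2 by 0.15 on the log2 scale (exact 95% interval 0.04 to 0.26, adjusted p = 0.0342, exact binomial test), and its adjusted p was 0.144 with TMM library sizes and 0.212 with DESeq2 size factors. *Ptpn2* was next, with a log2 ratio of replicate 2 to replicate 1 of 0.14 (0.01 to 0.27, adjusted p = 0.142, exact binomial test).

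For *Socs1* the log2 ratio was 0.04 (-0.07 to 0.15), for *Socs3* 0.02 (-0.14 to 0.17), for *Socs5* 0.03 (-0.14 to 0.19), for *Cish* -0.07 (-0.21 to 0.06) and for *Pias1* -0.02 (-0.16 to 0.11). The counting intervals of these 5 genes thus all lie between -0.21 and 0.19 on the log2 scale. For *Socs2* the interval was wide, from -0.12 to 1.06 around a ratio of 0.46, or 0.919-fold to 2.09-fold, so the interval includes both no difference and a 2-fold one. The median absolute log2 ratio was 0.09 over the 10 inhibitors and 0.17 over all genes tested. These medians are not matched for counts, and counting error widens the ratios of genes with few counts. Whether the inhibitors varied less than genes of like counts was not tested. Signed, the medians were 0.07 and 0.08, and 8 of the 10 inhibitors were higher in replicate 2, a count that became 5 of the 10 with TMM library sizes. The exact test of edgeR allows for variation between replicates, with the biological coefficient of variation set to 0.1. By this test, 0 of the 10 were called, against 60 of the 15949 genes tested. Of the 10, 0 had an unadjusted p under 0.05, and the share of all genes at that level was not computed. The coefficient that edgeR estimated from these libraries, over all genes with at least 10 counts and beyond counting error, was 0.096. The coefficients of variation of the CPM of the 10 genes had a median of 4.34%, from 0.764% in *Socs3* to 22.6% in *Socs2*. These include counting error and rest on 2 values each, so they are a different measure from the edgeR coefficient.

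**Figure D4:**
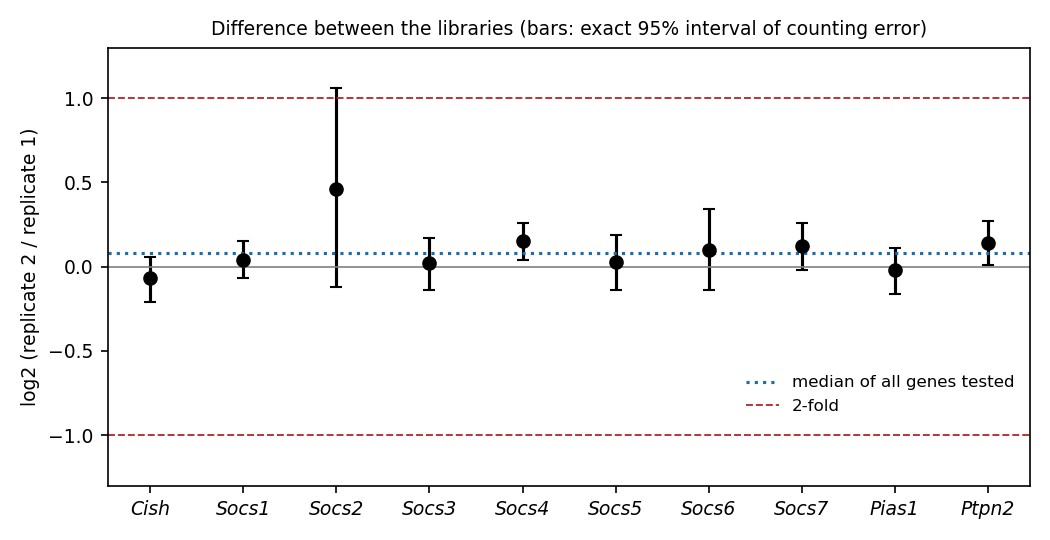
Log2 ratio of replicate 2 to replicate 1 for each inhibitor gene (points) with its exact 95% interval of counting error (bars). Red dashed lines mark a 2-fold difference and the blue dotted line the median of all genes tested, 0.08; all 10 points lie between the dashed lines, and only the bar of *Socs2*, which reaches 1.06, crosses one.

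The partners and targets of the inhibitors set their levels in context. The SOCS box works through elongins, a cullin and a RING protein, and all 6 listed genes of these were detected, with *Cul5*, the scaffold of the ligase, at 54.8 CPM ± 1.23 (6.71 RPKM) and *Tceb2*, elongin B, at 50.4 CPM ± 5.73 (36.1 RPKM; SD, n = 2). Their median was 11.9 RPKM, beside 8.37 RPKM for the 10 inhibitors. Levels per kilobase of the pathway lists, and ratios to them, were computed with merged exons only. Under the other lengths the median of the inhibitors was 10.9 to 37.6 RPKM, so gaps between lists may depend on the length used. All 3 other PIAS genes were detected, with *Pias2* at 44.7 CPM and 12.5 RPKM, above *Pias1* per kilobase, and *Pias4* at 34.7 CPM and 9.38 RPKM. The 7 other phosphatases stood higher, with a median of 41.3 RPKM. *Ptprc*, which encodes CD45, reached 2539 CPM ± 61.2 (139 RPKM) and *Ptpn6*, which encodes SHP-1, 493 CPM ± 14.4 (176 RPKM; SD, n = 2), against 18.1 RPKM for *Ptpn2*. A further list of 7 inhibitors, among them the ubiquitin ligase gene *Cbl* at 30.3 RPKM and the adaptor gene *Grb2* at 42.6 RPKM, had a median of 16.2 RPKM.

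Upstream of the inhibitors, all 4 JAK genes were detected, led by *Jak1* at 1060 CPM ± 72.0 (147 RPKM) and *Jak3*, the kinase of the common gamma chain, at 262 CPM ± 19.4 (49.0 RPKM; SD, n = 2). The summed level of the 8 SOCS genes was 0.341 of the summed JAK level in replicate 1 and 0.322 in replicate 2, and 0.426 and 0.406 of the summed level of the 7 STAT genes. Among these, *Stat3* had 250 CPM ± 11.3 (SD, n = 2), or 26.3 RPKM. Of 20 receptor chains, 19 were detected, with *Il2rb*, shared by the IL-2 and IL-15 receptors, at 558 CPM ± 49.2 (130 RPKM) and *Il7r* at 361 CPM ± 0.396 (77.4 RPKM; SD, n = 2). *Il13ra1* was the one not detected, at 0 and 2 counts.

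The cytokines themselves were mostly at or near 0 in these cells. Of 14 listed, only *Osm*, at 12.5 CPM, and *Ifng*, at 3.90 CPM, reached 1 CPM in both libraries. *Il4* had 11 and 7 counts, and *Il6*, *Il7*, *Il9* and *Il10* had 0 in each library, which allows a level of up to 0.179 and 0.185 CPM. In contrast, all 18 other targets of STAT factors on the list, 3 of which stand on another list too, were detected, with a median of 40.9 RPKM, *Ccnd2* (1059 CPM, 113 RPKM) and *Bcl2* (460 CPM, 50.3 RPKM) among them. None of the genes of these lists was called between the libraries. At an adjusted p under 0.05 alone, 1 of the 6 ligase partners, 0 of the 3 PIAS genes, 4 of the 7 phosphatases, 3 of the 7 further inhibitors, 3 of the 4 JAK genes, 2 of the 7 STAT genes, 11 of the 19 receptor chains tested, 0 of the 6 cytokines tested and 7 of the 18 targets passed, against 16.3% of all genes, and many of these genes have more counts than the 10 inhibitors. Among them *Stat4*, which transmits IL-12 signals, was higher in replicate 2 by 0.58 on the log2 scale.

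**Figure D5:**
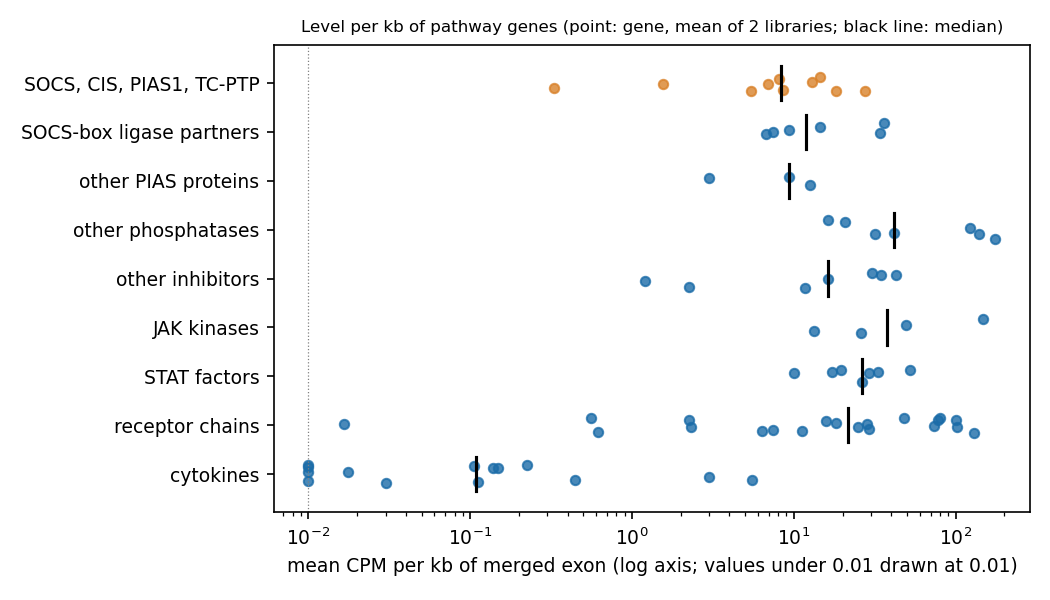
Mean CPM per kilobase of merged exon (horizontal log axis) of the 10 inhibitors (orange) and of the genes of 8 pathway lists (blue), without the list of STAT targets, 1 point a gene, with the median of each list as a black line and values under 0.01 drawn at 0.01. The inhibitors have a median of 8.37 RPKM, below the medians of the JAK genes (37.5 RPKM), STAT genes (26.3 RPKM) and receptor chains (21.6 RPKM), and the cytokines lie lowest with a median of 0.108 RPKM.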

How the data were processed

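RNA of sorted thymocytes was sequenced in 2 libraries with single-end reads of 50 bases. The authors aligned the reads with TopHat2 2.1.1 to mm10 (GRCm38) and deposited raw counts per gene from HTSeq 0.6.1, with no normalization. The gene annotation and strand setting are not given in the sources used here. Of uniquely aligned reads, 40.6% and 41.2% were on genes, 55.9% in each library were on no gene and 3.52% and 2.92% were ambiguous. These last rows were left out of library totals.

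From the deposited counts, CPM, CPM per kilobase of merged exon (GENCODE M21, GRCm38) and shares were computed. Lengths were joined by symbol, and 46294 of 48321 symbols matched 1 gene. The libraries were compared with a two-sided exact binomial test per gene (scipy 1.17.1) with Benjamini-Hochberg adjustment (statsmodels 0.14.6), and with edgeR 4.0.16 and DESeq2 1.42.0 size factors as alternatives. The binomial test and edgeR's test were run on simulated counts first. No molecular identifiers were used, so reads may be copies of 1 molecule, and intervals and the 3-count floor show counting error alone. The labels do not say that the libraries came from separate mice, but *Xist* and *Ddx3y* differ between them as between female and male mice. They are therefore not repeats of the same RNA or from the same mice. Every difference between them is also one between the sexes. The binomial p-values set the difference between these 2 libraries against counting error alone, and measure no spread between mice. Alternatives were library sizes by TMM or DESeq2, totals that leave out ribosomal and mitochondrial RNA, other gene lengths, other minimum counts and each replicate left out. The 10 genes and all lists were chosen with earlier results of these data known. From each list the 2 genes with the highest CPM were named, apart from a gene that is not reported here, besides genes at 0 or singled out after their values were seen (*Il4*, *Stat4*). The interferon motif was chosen after the *Socs1* sequence was seen. Python 3.11.15 and R 4.3.3 were used.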

Additional observations from a re-analysis of the deposited data

How the results depend on the processing

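The median level of the 10 inhibitors, 52.6 CPM, was 61.4 CPM with totals that leave out mitochondrial and ribosomal RNA genes, and 50.8 to 52.9 CPM with 1 replicate left out. Per kilobase, the median of 8.37 RPKM became 10.9 with the longest transcript, 37.6 with coding length and 11.4 with the principal transcript, a length chosen after seeing the data, and was 8.23 to 8.51 with 1 replicate left out. The share of *Socs1* in the family, 35.4%, became 31.7%, 31.9% and 28.9% under the same lengths, and that of *Cish*, 11.1%, became 13.5%, 18.2% and 20.3%. Of the 10 genes, 8 kept their rank with the longest transcript, 4 with coding length and 3 with the principal transcript, and all 10 with either replicate left out. The number of genes called between the libraries, 242, fell to 55 at a minimum of 100 counts and to 60 by edgeR's exact test, and lay from 197 to 218 under the other settings. The share higher in replicate 2 moved with the scaling, from 150 of 242 to 98 of 197 with TMM library sizes. None of the 10 inhibitors was called under any of these settings, and the lowest adjusted p among them ranged from 0.0253 at a minimum of 100 counts to 1.00 by edgeR's exact test. No paired analysis was possible because there is a single group. Depth limits *Socs2* most, which had 44 and 59 counts.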
